A study of Mus musculus with 12 samples.

Results

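Rab proteins are small GTPases that sit on the membranes of vesicles and organelles. Their genes were followed here in mouse macrophages on the way to becoming osteoclasts, the cells that resorb bone. The members were chosen by name and depth: a gene was taken when its symbol was Rab followed by a number and at most a letter and a digit, and when it had at least 10 reads in 3 or more of the 12 libraries. Of 57 such rows among the 16570 genes of the deposited table, 49 passed. The 8 that did not (Rab15, Rab17, Rab25, Rab26, Rab30, Rab39b, Rab3b and Rab40b) never exceeded 10 reads in a library. All 49 members passed the low-count filter of the test, which was set on group size and not on the direction of any change.

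RNA was sequenced from bone marrow-derived macrophages of C57BL/6J mice aged 6 to 8 weeks, in 4 groups of 3 libraries. Every group received M-CSF, the macrophage growth factor, at 50 ng/mL. Cells treated for 2 days with M-CSF, RANKL at 100 ng/mL and 1 µM RHC80267 are called RHC80267 cells here, those with M-CSF, RANKL and 1 µM BMS309403 are called BMS309403 cells, those with M-CSF and RANKL are called RANKL cells, and those with M-CSF alone are called M-CSF cells. RANKL is the cytokine that starts osteoclast formation, RHC80267 is known to inhibit diacylglycerol lipase, and BMS309403 to block FABP4, a carrier of fatty acids. For the inhibitor cultures the treatment label writes RANK where the design text writes RANKL, and no vehicle is named for cells without an inhibitor. The labels do not say whether the 3 libraries of a group came from separate mice or cultures, and p-values cover the spread between the libraries alone, which may be no more than technical.

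A Rab protein works as a switch. Loaded with GTP by an exchange factor (GEF), it binds effectors that move, tether or fuse a vesicle, and a GTPase-activating protein (GAP) turns it off again. Prenyl groups on its tail hold it in the membrane, and GDP dissociation inhibitors (GDIs) carry it back through the cytosol. Each compartment has its own Rabs, from the endoplasmic reticulum and Golgi through early, recycling and late endosomes to secretory granules. In osteoclasts, late endosomes and secretory lysosomes fuse with the membrane that faces bone and form the ruffled border, and Rab7 is known to be needed for that border. Rab3d, Rab27a, Rab38 and Rab44 have also been studied in mouse osteoclasts.

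Total expected counts were 17760844 to 18344989 per library, of which 89620 to 103391 fell on the 49 members. The members' share of all counts was 0.502% to 0.505% in RHC80267 cells, 0.547% to 0.563% in BMS309403 cells, 0.540% to 0.546% in RANKL cells and 0.567% to 0.571% in M-CSF cells. The 10 osteoclast markers summed to 16260 to 18390 CPM (counts scaled to library size) in RHC80267 cells, 6774 to 7643 CPM in BMS309403 cells, 8301 to 10310 CPM in RANKL cells and 109 to 133 CPM in M-CSF cells. The 10 macrophage markers summed to 19970 to 21040 CPM in RHC80267 cells, 27310 to 28950 CPM in BMS309403 cells, 24470 to 26210 CPM in RANKL cells and 31610 to 32050 CPM in M-CSF cells, and none was at 0. T and NK cell markers stayed under 1 CPM. Because each library is a mixture, fewer cells of a type and less RNA per cell cannot be told apart. Whether the number of osteoclast precursors or of other macrophages in a culture had a part in the changes below was not tested. All 12 libraries entered 1 edgeR quasi-likelihood fit. A gene is called at an adjusted p below 0.05 (Benjamini-Hochberg over 12168 genes), and only called genes are said to rise or fall. Levels are CPM with library sizes adjusted by TMM factors, each log2 fold change comes with its SE, and values of 3 libraries are given in the order of their replicate numbers.

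Compared per transcript length with the deposited FPKM values, Rab7 was the most abundant member in each group, at 400 ± 8.26 FPKM in RHC80267 cells, 439 ± 8.33 FPKM in BMS309403 cells, 431 ± 8.27 FPKM in RANKL cells and 341 ± 9.18 FPKM in M-CSF cells (SD, n = 3 each). It made up 16.8%, 17.3%, 17.2% and 13.4% of the members' summed FPKM in those 4 groups. Rab5c, an early endosome Rab, came next in every group, at 167 ± 5.17 FPKM in RHC80267 cells, 185 ± 1.97 FPKM in BMS309403 cells, 174 ± 2.69 FPKM in RANKL cells and 207 ± 1.85 FPKM in M-CSF cells. Below it, Rab1a and Rab1b of the secretory pathway and Rab14 of the recycling pathway took ranks 3 to 5 in the 3 groups with RANKL. The largest move along this order was made by Rab38, which was rank 24 in RHC80267 cells, 33 in BMS309403 cells, 30 in RANKL cells and 42 in M-CSF cells. Rab7b moved the other way, standing at rank 29 in RHC80267 cells and at 13, 16 and 13 in BMS309403, RANKL and M-CSF cells. Rab36, Rab33a, Rab37 and Rab27b were under 1 FPKM in every group.

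**Figure D1:**
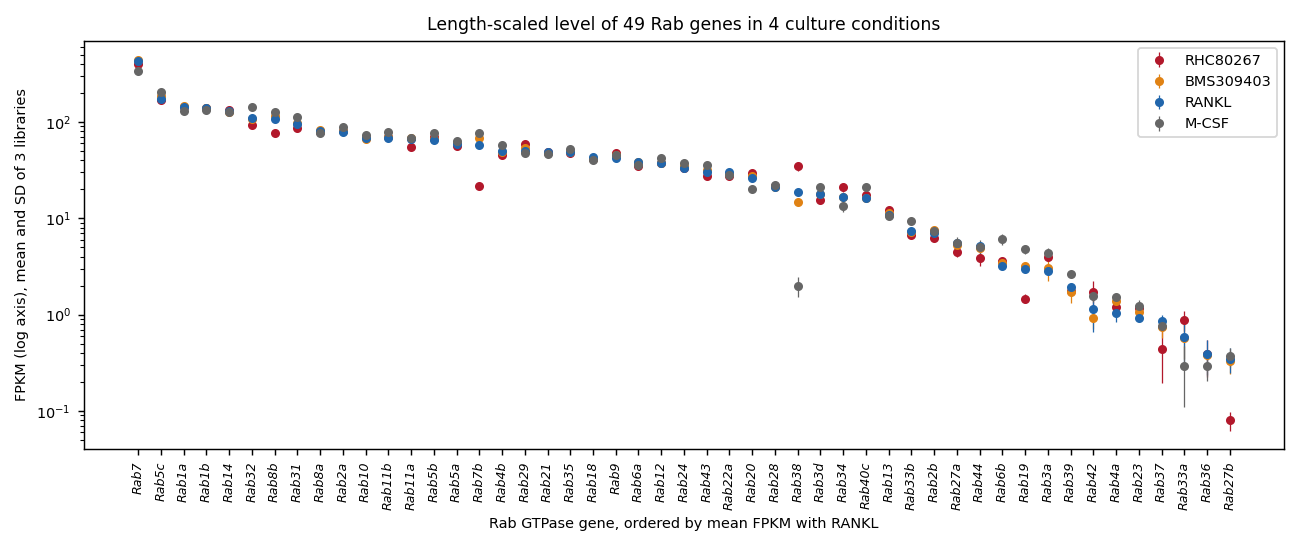
Mean FPKM with SD of 3 libraries (log axis) of the 49 Rab genes in each culture condition, ordered by their level in RANKL cells. For most genes the 4 points lie close together. Among the exceptions, Rab38 in M-CSF cells (1.98 FPKM) stands well below the points of the other groups. So do Rab7b and Rab27b in RHC80267 cells (21.7 and 0.08 FPKM).

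Promoters of 3 members are shown as examples of genes called in the same direction with RANKL and with RHC80267: Rab34 rose in both comparisons, and Rab32 and Rab8b fell. They were picked after their values and motifs were seen, to show where the motifs below lie. The Rab34 call was lost under 6 of 13 alternative settings with RANKL and under 1 of 13 with RHC80267. RefSeq windows on GRCm38.p6 from 250 bases before to 50 bases after a gene's start were found for 40 of the 49 members (49 windows). Rab18, Rab27b, Rab2a, Rab36, Rab37, Rab38, Rab44, Rab4a and Rab7b had no entry. Motifs of factors known to act in osteoclast precursors were searched on both strands: TGANTCA (the AP-1 site), TGGAAA (the core of the NFAT site), and TCACGTG and TCATGTG (sites of the MITF and TFE family). Capitals mark the matches.
Rab34 (chr11:78188177-78188476, plus strand): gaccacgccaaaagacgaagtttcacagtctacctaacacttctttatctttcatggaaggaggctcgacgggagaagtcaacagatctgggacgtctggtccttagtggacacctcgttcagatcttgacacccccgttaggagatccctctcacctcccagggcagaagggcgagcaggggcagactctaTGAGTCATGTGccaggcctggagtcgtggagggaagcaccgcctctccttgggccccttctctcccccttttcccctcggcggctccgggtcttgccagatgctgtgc
Rab32 (chr10:10558158-10558457, minus strand): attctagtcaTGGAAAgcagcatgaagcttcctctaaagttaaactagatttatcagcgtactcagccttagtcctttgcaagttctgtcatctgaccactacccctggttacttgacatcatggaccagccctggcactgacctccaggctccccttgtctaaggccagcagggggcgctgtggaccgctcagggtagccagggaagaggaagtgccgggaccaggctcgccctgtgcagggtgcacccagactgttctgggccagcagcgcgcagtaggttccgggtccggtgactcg
Rab8b (chr9:66919656-66919955, minus strand): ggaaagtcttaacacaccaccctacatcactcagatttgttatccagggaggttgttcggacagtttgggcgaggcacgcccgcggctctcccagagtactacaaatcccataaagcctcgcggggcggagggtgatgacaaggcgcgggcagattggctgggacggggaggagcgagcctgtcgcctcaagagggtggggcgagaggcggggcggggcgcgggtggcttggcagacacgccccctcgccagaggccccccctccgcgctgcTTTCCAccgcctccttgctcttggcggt
The other members called lower in both comparisons were Rab19, Rab31, Rab33b, Rab3d, Rab43, Rab4b, Rab5a, Rab5c and Rab7b, and Rab38 was higher in both. Of these, Rab4b held TGGAAA and Rab5a TCACGTG, the windows of Rab19, Rab31, Rab33b, Rab3d, Rab43 and Rab5c held none of the 4 motifs, and Rab7b and Rab38 had no entry. In the Rab34 window shown, the AP-1 site and TCATGTG overlap by 3 bases, with the AP-1 site starting 58 bases before the gene's start. Another Rab34 window, chr11:78188498-78188797, held TGGAAA and is not printed. The printed Rab34 window was the only member window with TGANTCA, so 2.04% of member windows held it, against 7.81% of all 32851 promoter windows. TGGAAA was found in 16.3% of member windows and 21.4% of all windows, among those printed in Rab32 on the given strand and in Rab8b on the other, where it reads TTTCCA. The motif TCACGTG, whose reverse partly overlaps itself, was found in 8.16% of member windows (Rab21, Rab23, Rab24 and Rab5a) and 3.77% of all windows, and TCATGTG in 4.08% (Rab28 and Rab34) and 3.77%. A match describes the letters of the window and no binding was measured.

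RANKL cells differed from M-CSF cells in most Rab genes, by small amounts. Of the 49 members, 6 rose and 26 fell, where 31.4% of all genes tested rose and 29.8% fell. Thus 12.2% of the members rose and 53.1% fell, and 65.3% were called either way, against 61.2% of all genes. The median log2 fold change was −0.15 over the members and 0.0028 over all genes. Nearly all members moved by under 1 log2 unit: the called exceptions were Rab38, which rose 9.33-fold, and Rab33a, which had few reads. Small changes were common in the whole table, where 1127 of 12168 genes were called beyond 1 log2 unit. The median absolute log2 fold change was 0.23 over the members and 0.25 over all genes. Libraries of the 2 groups did not overlap for 33 members, and for 65.7% of all genes tested. Of the 10 macrophage markers, 8 were also called lower in RANKL cells and none higher, and their part in the falls of the 26 members was not tested.

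**Figure D2:**
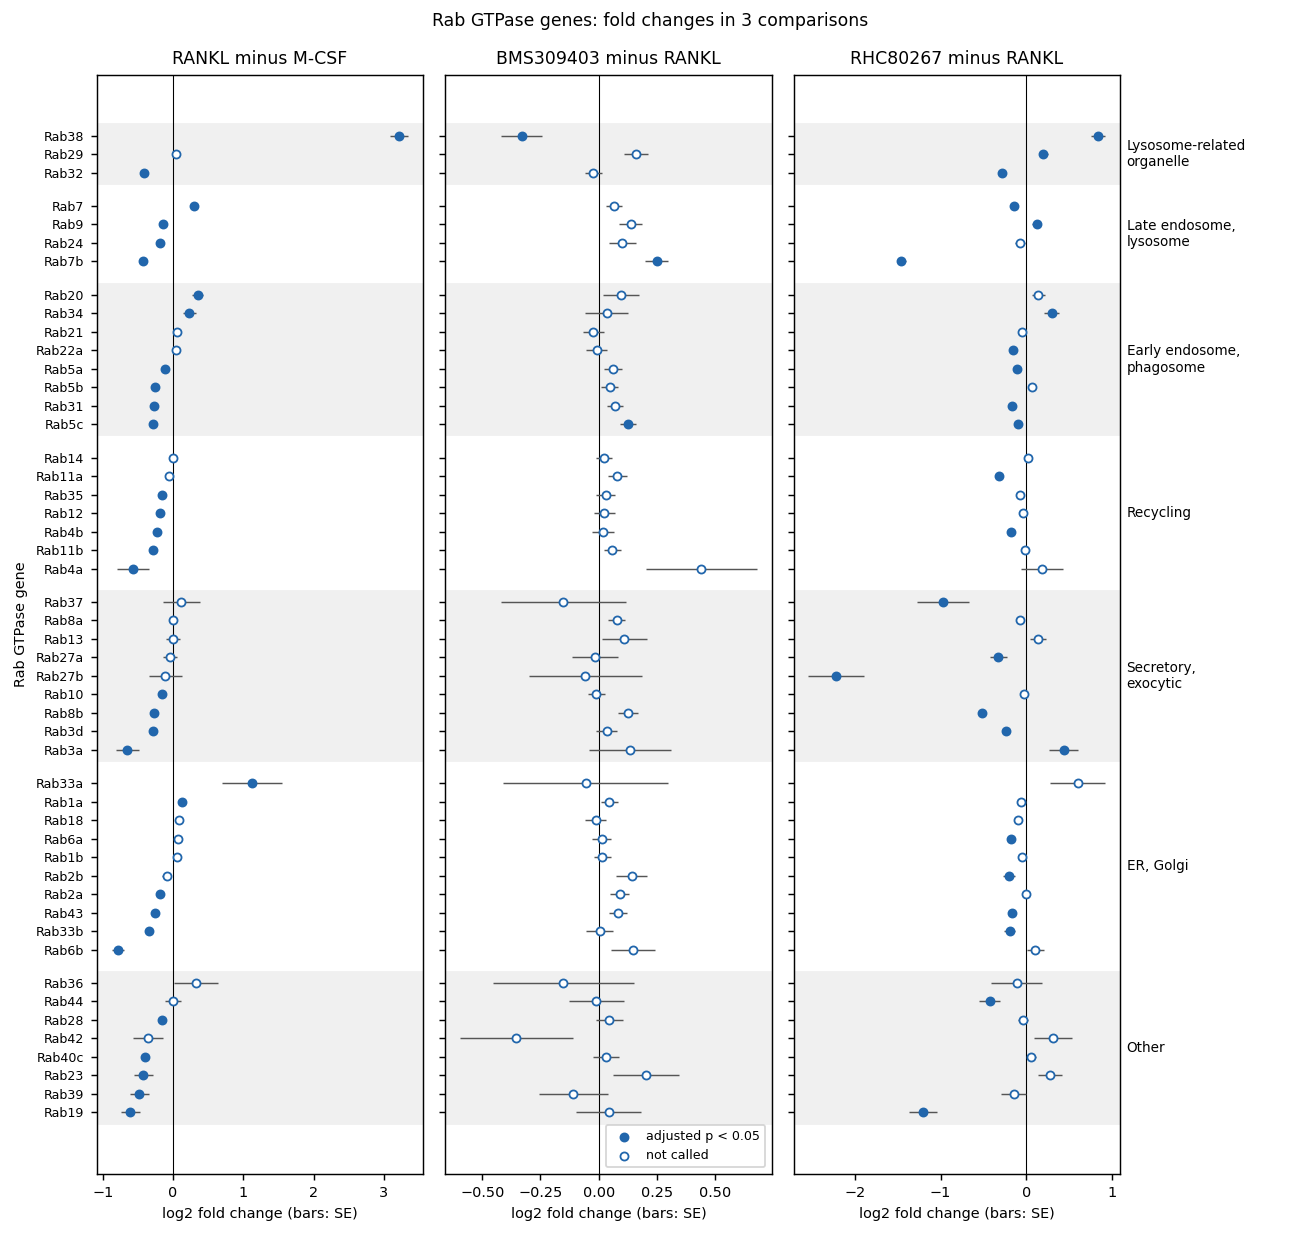
Log2 fold change with SE of each Rab gene in 3 comparisons, by compartment, with filled points for genes called at an adjusted p below 0.05. The horizontal scales differ between panels. With RANKL most called points lie left of 0 and Rab38 stands at 3.22, with BMS309403 3 points are filled, and with RHC80267 Rab27b and Rab7b lie farthest left at −2.22 and −1.46.

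Among the Rabs of lysosome-related organelles, Rab38 rose, Rab32 fell and Rab29 was not called. Rab38 (gene 72433, chr7:88430273-88491572 on GRCm38) is known from melanocytes, where it and its close relative Rab32 deliver enzymes to melanosomes. Its level was 25.9, 22.3 and 22.6 CPM in RANKL cells and 2.58, 3.08 and 1.91 CPM in M-CSF cells. Each RANKL library was thus above each M-CSF library by a wide margin, and the log2 fold change was 3.22 ± 0.13 (adjusted p = 2.85e-15). All 10 osteoclast markers were also called higher in RANKL cells than in M-CSF cells, and their part in the Rab38 result was not tested. Rab32 (gene 67844, chr10:10545039-10558207) went the other way, with 189, 191 and 192 CPM in RANKL cells and 253, 254 and 255 CPM in M-CSF cells. The groups did not overlap, the libraries within each group were nearly equal, and the log2 fold change was −0.41 ± 0.037 (adjusted p = 2.79e-09). Rab29, which recruits the kinase LRRK2 to lysosomes, had a log2 fold change of 0.043 ± 0.053 and was not called.

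All 4 Rabs of the late endosome and lysosome were called, against 61.2% of all genes, and only Rab7 among them rose. The 3 that fell became 1 without M-CSF replicate 3. Rab7 (gene 19349, chr6:87999106-88045270), which drives fusion of late endosomes with lysosomes, had 778, 805 and 782 CPM in RANKL cells and 647, 620.5 and 646 CPM in M-CSF cells. Every RANKL library was higher, and the log2 fold change was 0.31 ± 0.035 (adjusted p = 9.99e-08). Rab7b (gene 226421, chr1:131688681-131715443), which in human cells acts between late endosomes and the Golgi, had 226, 244 and 246 CPM in RANKL cells and 318, 334 and 306 CPM in M-CSF cells. It fell without overlap between the groups (log2 fold change −0.42 ± 0.050, adjusted p = 1.71e-07), so the 2 genes named Rab7 moved in opposite directions. Rab9, which returns mannose-6-phosphate receptors to the Golgi, had 41.5, 43.5 and 44.3 CPM in RANKL cells and 45, 47.2 and 50.1 CPM in M-CSF cells. It fell by 0.14 ± 0.051 on the log2 scale (adjusted p = 0.0237), a call lost under 3 of 13 alternative settings, among them DESeq2. Rab24, a Rab linked to autophagy, fell with a log2 fold change of −0.19 ± 0.058, but it moved to −0.11 (adjusted p = 0.0822) without M-CSF replicate 3. Rab24 also shares 1258 exonic bases with Prelid1 on the opposite strand, and the sources used here do not say whether reads were counted by strand.

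Of 8 Rabs of early endosomes and phagosomes, 2 rose and 4 fell, so 75% were called, against 61.2% of all genes. The 3 Rab5 genes, which govern fusion of early endosomes, all fell. Rab5a had 117, 122 and 125 CPM in RANKL cells and 135, 127 and 130.5 CPM in M-CSF cells (log2 fold change −0.11 ± 0.039, adjusted p = 0.0193). The groups stood close to each other without overlapping, and the call was lost without M-CSF replicate 1 or RANKL replicate 1. For Rab5b and Rab5c the log2 fold changes were −0.25 ± 0.035 and −0.28 ± 0.034, and Rab31, which acts between the Golgi and endosomes, was at −0.27 ± 0.034. Rab20 (gene 19332, chr8:11453390-11478640), a Rab of maturing macrophage phagosomes, had 27.2, 32 and 29.5 CPM in RANKL cells and 24.9, 21.8 and 22.9 CPM in M-CSF cells. All 3 RANKL libraries were higher, and the log2 fold change was 0.35 ± 0.081 (adjusted p = 0.000807). Rab34, a Rab of macropinosomes and phagosomes, had 16.9, 17.9 and 19.7 CPM in RANKL cells and 14, 14.3 and 18.1 CPM in M-CSF cells. Those groups overlapped, since M-CSF replicate 3 lay above 2 of the RANKL libraries, and the log2 fold change was 0.23 ± 0.10 (adjusted p = 0.0408). Rab34 lost its call under 6 of 13 alternative settings, and without M-CSF replicate 3 its log2 fold change was 0.36. Rab21 and Rab22a were not called, at 0.058 and 0.046.

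Recycling Rabs had 5 of 7 members lower and none higher, so 71.4% were called, against 61.2% of all genes. Rab11b, a Rab of slow recycling, was at a log2 fold change of −0.29 ± 0.037, Rab4b and Rab4a of fast recycling at −0.23 ± 0.046 and −0.57 ± 0.23, Rab12 at −0.19 ± 0.045 and Rab35 at −0.15 ± 0.041. Rab4a rested on 0.929, 1.1 and 1.4 CPM in RANKL cells and 1.74, 1.57 and 1.8 CPM in M-CSF cells, and lost its call (adjusted p = 0.039) under 6 of 13 alternative settings. Rab11a (gene 53869, chr9:64715300-64737756), the other slow recycling Rab, had 136, 133 and 134 CPM in RANKL cells and 136, 145 and 136 CPM in M-CSF cells. It was lower in each RANKL library by a small margin and was not called (log2 fold change −0.051 ± 0.041, adjusted p = 0.287). Rab14 was level, at −0.0056 ± 0.035.

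Secretory and exocytic Rabs had 4 of 9 members lower and none higher, so 44.4% were called, against 61.2% of all genes. Rab3a, known for exocytosis of synaptic vesicles, had 3.12, 3.04 and 3.41 CPM in RANKL cells and 4.32, 5.09 and 5.62 CPM in M-CSF cells. The groups did not overlap and the log2 fold change was −0.65 ± 0.17 (adjusted p = 0.00189). Rab3d (gene 19340, chr9:21907491-21918199), found on secretory granules, had 60.6, 62.3 and 62.6 CPM in RANKL cells and 76.1, 78.5 and 72.3 CPM in M-CSF cells. Each RANKL library was lower than each M-CSF library, at a log2 fold change of −0.29 ± 0.045 (adjusted p = 8.42e-06). Rab8b (gene 235442, chr9:66843609-66919705), which carries cargo to the plasma membrane, had 442, 491 and 494 CPM in RANKL cells and 563, 585 and 571 CPM in M-CSF cells, and fell (log2 fold change −0.27 ± 0.044, adjusted p = 1.97e-05). Rab10 was lower by a log2 fold change of −0.15 ± 0.035, and Rab8a was level at 0.0062 ± 0.037. Rab27a, which docks secretory granules and lysosome-related organelles at the plasma membrane, had 15.6, 15.2 and 14.2 CPM in RANKL cells and 17.8, 15.5 and 13 CPM in M-CSF cells. The groups overlapped and it was not called (log2 fold change −0.039 ± 0.10). Rab13, a Rab of epithelial junctions and of the route to the plasma membrane, had 12.4, 12.6 and 13.7 CPM in RANKL cells and 12, 12.6 and 14 CPM in M-CSF cells, with overlapping groups and a log2 fold change of −0.0011 ± 0.10 that was not called. Rab27b and Rab37, both under 4 CPM, were at −0.11 ± 0.24 and 0.12 ± 0.27 and not called.

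Rabs of the endoplasmic reticulum and Golgi had 2 of 10 members higher and 4 lower, so 60% were called, against 61.2% of all genes. Rab6b, a Rab of retrograde Golgi transport known mainly from neurons, had 12.2, 13.7 and 11.9 CPM in RANKL cells and 21.7, 19.3 and 24.3 CPM in M-CSF cells. It had the lowest fold change of all called members in RANKL cells, with no overlap (log2 fold change −0.79 ± 0.090, adjusted p = 1.16e-07), while Rab6a was at 0.065 ± 0.040 and not called. Rab1a, which carries cargo from the endoplasmic reticulum to the Golgi, had 356, 367 and 366 CPM in RANKL cells and 336, 342 and 323 CPM in M-CSF cells and rose slightly (log2 fold change 0.12 ± 0.037, adjusted p = 0.00752). Rab33a, at under 1 CPM in every RANKL and M-CSF library, was called at 1.12 ± 0.42, and the call was lost under 5 of 12 alternative settings. Rab33b, Rab43 and Rab2a fell by 0.35, 0.25 and 0.19 on the log2 scale. Rab43 shares 4164 exonic bases with the protein-coding entry Gm45140 on the same strand, although all counts of Rab43 were whole numbers. Whether reads of that entry were counted to Rab43 was not tested. Rab18, Rab1b and Rab2b were not called.

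Of the 8 members outside these compartments, 5 fell and none rose, so 62.5% were called, against 61.2% of all genes. Rab19 had 4.21, 3.7 and 3.97 CPM in RANKL cells and 6.44, 6.37 and 5.28 CPM in M-CSF cells, without overlap (log2 fold change −0.61 ± 0.13, adjusted p = 0.000357). Rab39, a Rab linked to autophagy and phagosomes, had 5.57, 4.91 and 4.7 CPM in RANKL cells and 7.34, 6.65 and 7.25 CPM in M-CSF cells, and was also lower in all RANKL libraries (log2 fold change −0.48 ± 0.14, adjusted p = 0.00431). Rab23, an inhibitor of Hedgehog signalling, Rab40c, part of a ubiquitin ligase, and Rab28 were at −0.42, −0.40 and −0.16, and the call of Rab23 was lost without M-CSF replicate 1 or RANKL replicate 1 and that of Rab28 with DESeq2 and without M-CSF replicate 3 or RANKL replicate 2. Rab44, a large Rab with a calcium-binding region that has been studied in mouse osteoclasts, had 16.3, 14.5 and 15.3 CPM in RANKL cells and 17.9, 14.4 and 13.9 CPM in M-CSF cells. Its groups overlapped, and its log2 fold change of −0.0027 ± 0.12 was not called.

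**Figure D3:**
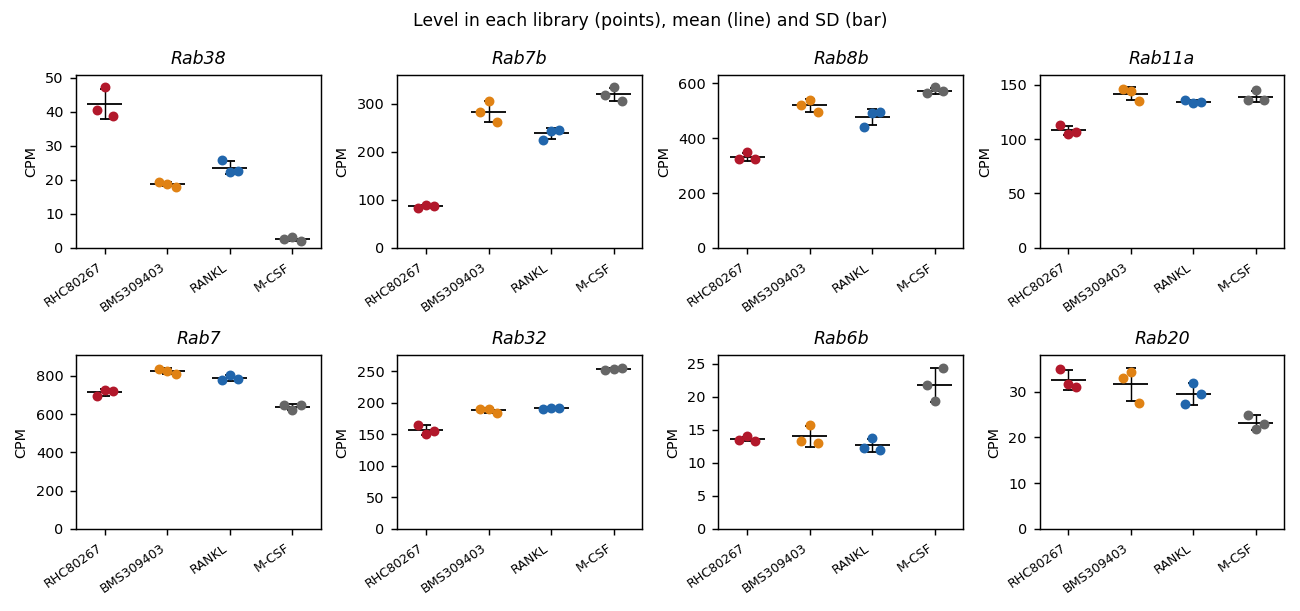
CPM of 8 Rab genes in every library (points), with the mean (line) and SD (bar) of each group. Rab38 is near 0 in M-CSF cells and highest in RHC80267 cells, Rab7b is lowest in RHC80267 cells, and Rab32 and Rab8b step down with RANKL and again with RHC80267.

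BMS309403 cells differed from RANKL cells in 3 Rab genes. Rab7b and Rab5c rose and Rab38 fell, so 2 of 49 members were higher and 1 lower, against 3.49% and 3.74% of all genes tested. The share called either way was 6.12% of the members and 7.23% of all genes, and the median log2 fold change was 0.043 over the members. Libraries did not overlap for 13 members (11 higher and 2 lower), and for 23.2% of all genes (1368 higher and 1461 lower). Both inhibitor comparisons use the same 3 RANKL libraries. Of the 10 macrophage markers, 4 were called higher in BMS309403 cells and none lower, and their part in the rises of Rab7b and Rab5c was not tested.

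Rab38 had 19.4, 18.9 and 18 CPM in BMS309403 cells and 25.9, 22.3 and 22.6 CPM in RANKL cells. All BMS309403 libraries were lower, and the log2 fold change was −0.33 ± 0.087 (adjusted p = 0.0222). Without RANKL replicate 1, BMS309403 replicate 2 or BMS309403 replicate 3, Rab38 lost its call, with adjusted p up to 0.174. The 10 osteoclast markers moved the same way, with 8 lower and none higher in BMS309403 cells, and their part in the Rab38 result was not tested. Rab7b had 283, 306 and 262 CPM in BMS309403 cells and 226, 244 and 246 CPM in RANKL cells. Each BMS309403 library was higher, and the log2 fold change of 0.25 ± 0.050 (adjusted p = 0.00361) was called under all 13 alternative settings. Rab5c, of early endosomes, had 305, 305 and 298 CPM in BMS309403 cells and 279, 274 and 278 CPM in RANKL cells. It was higher in every BMS309403 library by a small amount (log2 fold change 0.13 ± 0.034, adjusted p = 0.0232), and the call was lost when replicate 1 or 2 of either group was left out.

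For the 46 members that were not called the estimates were mostly close to 0, and their intervals bound what could have been missed. Rab7, with 839, 828 and 808 CPM in BMS309403 cells, had a log2 fold change of 0.065 ± 0.034 (95% interval −0.0062 to 0.14) against RANKL cells. Rab3d was at 0.034 (−0.061 to 0.13), Rab11a at 0.079 (−0.0053 to 0.16), Rab32 at −0.023 (−0.10 to 0.055) and Rab5a at 0.060 (−0.021 to 0.14). Rab29 was at 0.16 (0.053 to 0.27), Rab9 at 0.14 (0.031 to 0.24) and Rab8b at 0.13 (0.033 to 0.22). None of them was called, although their libraries did not overlap with the RANKL libraries. Without RANKL replicate 3 Rab29 was called, and without BMS309403 replicate 3 Rab8b was. For the members with few reads the intervals were wide, as for Rab27b at −0.057 (−0.56 to 0.45), Rab37 at −0.15 (−0.71 to 0.40) and Rab4a at 0.44 (−0.055 to 0.94). Rab27a, Rab44 and Rab13 were at −0.016 (−0.22 to 0.19), −0.011 (−0.26 to 0.23) and 0.11 (−0.090 to 0.31).

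RHC80267 cells differed from RANKL cells in 25 of the 49 members, of which 5 rose and 20 fell, where 26.9% of all genes tested rose and 23% fell. Thus 10.2% of the members rose and 40.8% fell, and the share called either way was 51.0%, against 49.9% of all genes. The median log2 fold change was −0.073 over the members and 0.025 over all genes. Rab38 rose further, while Rab27b, Rab7b and Rab19 fell by more than 1 log2 unit. The 5 that rose became 2 without RHC80267 replicate 1 and 3 without RHC80267 replicate 2 or 3 or RANKL replicate 1 or 2. Libraries of RHC80267 and RANKL cells did not overlap for 33 members, and for 57.9% of all genes. Of the 10 macrophage markers, 5 were called lower in RHC80267 cells and 3 higher, and their part in the falls of the 20 members was not tested.

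Rab38 had 40.4, 47.1 and 38.9 CPM in RHC80267 cells and 25.9, 22.3 and 22.6 CPM in RANKL cells. The groups were far apart, and the log2 fold change was 0.84 ± 0.077 (adjusted p = 1.10e-08). All 10 osteoclast markers were also called higher in RHC80267 cells, and their part in the Rab38 result was not tested. Rab29, the LRRK2 recruiter, had 46, 45.5 and 43.6 CPM in RHC80267 cells and 38.4, 38.3 and 40.8 CPM in RANKL cells and rose (log2 fold change 0.20 ± 0.052, adjusted p = 0.00267). Rab32 fell, with 165, 149.9 and 155 CPM in RHC80267 cells and 189, 191 and 192 CPM in RANKL cells (log2 fold change −0.29 ± 0.038, adjusted p = 2.04e-06). Rab32 and Rab38, which share the melanosome role, thus moved in opposite directions here as with RANKL.

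Among late endosome Rabs, Rab7b had 83.5, 89.2 and 87.8 CPM in RHC80267 cells and 226, 244 and 246 CPM in RANKL cells. The level in RHC80267 cells was 0.364 times that in RANKL cells with little spread between libraries (log2 fold change −1.46 ± 0.053, adjusted p = 5.38e-15), and the call held under all 13 alternative settings. Rab7 had 695, 729 and 719.7 CPM in RHC80267 cells and 778, 805 and 782 CPM in RANKL cells, a smaller fall with no overlap (log2 fold change −0.14 ± 0.035, adjusted p = 0.0017). Rab9 had 45.9, 49 and 45.9 CPM in RHC80267 cells and 41.5, 43.5 and 44.3 CPM in RANKL cells. It passed the threshold narrowly (log2 fold change 0.12 ± 0.051, adjusted p = 0.049) and failed it under 11 of 13 alternative settings. Rab24 was not called (−0.073 ± 0.059).

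The secretory group had 5 of 9 members lower and 1 higher, so 66.7% were called, against 49.9% of all genes. Rab8b led this group in reads. Rab8b had 323, 348 and 324 CPM in RHC80267 cells and 442, 491 and 494 CPM in RANKL cells. The groups were well separated, and the log2 fold change was −0.52 ± 0.045 (adjusted p = 4.09e-09), while the close relative Rab8a was at −0.068 ± 0.038 and not called. Rab27b, a Rab of granule and exosome release, had 0.592, 0.381 and 0.543 CPM in RHC80267 cells and 2.73, 2.82 and 1.57 CPM in RANKL cells. All 3 RHC80267 libraries were under 1 CPM, and the log2 fold change was −2.22 ± 0.33 (adjusted p = 7.87e-06). Rab27a had 12.9, 12.8 and 10.3 CPM in RHC80267 cells and 15.6, 15.2 and 14.2 CPM in RANKL cells and fell less (log2 fold change −0.33 ± 0.10, adjusted p = 0.0109). Rab37, known from mast cell granules, had 0.592, 1.31 and 0.543 CPM in RHC80267 cells and 1.86, 1.6 and 1.34 CPM in RANKL cells. RHC80267 replicate 2 lay close to the RANKL libraries and the other two well below (log2 fold change −0.97 ± 0.30, adjusted p = 0.00945). Without that replicate the log2 fold change of Rab37 was −1.49, and without RHC80267 replicate 1 or 3 it was not called.

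Rab3d had 52.1, 50.7 and 55.1 CPM in RHC80267 cells and 60.6, 62.3 and 62.6 CPM in RANKL cells and fell in every library (log2 fold change −0.23 ± 0.046, adjusted p = 0.000271). Rab3a had 4.2, 4.58 and 4.18 CPM in RHC80267 cells and 3.12, 3.04 and 3.41 CPM in RANKL cells, and was called higher (log2 fold change 0.44 ± 0.17, adjusted p = 0.0367), a call lost under 6 of 13 alternative settings. Rab13 had 12.8, 15.6 and 14 CPM in RHC80267 cells, overlapping the RANKL libraries, and was not called (log2 fold change 0.14 ± 0.10). Rab10 was level at −0.021 ± 0.035.

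Rab44 had 11.3, 13.7 and 9.34 CPM in RHC80267 cells and 16.3, 14.5 and 15.3 CPM in RANKL cells and fell without overlap (log2 fold change −0.43 ± 0.12, adjusted p = 0.00663). The calls of Rab44 and Rab27a were both lost without RHC80267 replicate 3 (adjusted p = 0.0569 and 0.0837). Markers of neutrophils, granule-rich cells, were lower as well. These 6 genes summed to 371 to 556 CPM in RHC80267 cells and 775 to 879 CPM in RANKL cells, 5 were called lower, and none had 0 counts throughout. The 4 mast cell and basophil markers in the table summed to 4.42 to 8.42 CPM in RHC80267 cells and 8.06 to 8.84 CPM in RANKL cells, with 1, Kit, called lower. Other lists also had markers called lower: megakaryocytes and B cells 3 each, with 1 higher in each list, and dendritic cells 2. Endothelial and erythroid lists had 1 lower each. The megakaryocyte sum was higher, at 110.6 to 113.7 CPM in RHC80267 cells and 91.54 to 94.64 CPM in RANKL cells. The part of any of these cells in the falls of Rab27b, Rab27a, Rab37 and Rab44 was not tested. Rab19 had 1.56, 1.85 and 1.74 CPM in RHC80267 cells and 4.21, 3.7 and 3.97 CPM in RANKL cells, with the groups well apart (log2 fold change −1.20 ± 0.16, adjusted p = 2.68e-06). Of the 8 members outside the named compartments, 25% were called, against 49.9% of all genes.

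**Figure D4:**
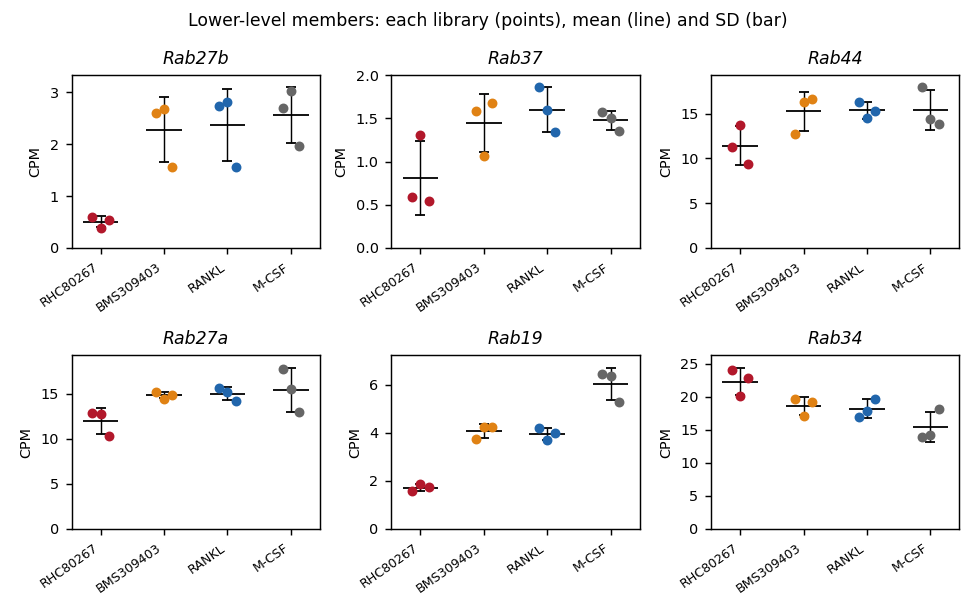
CPM of 6 less abundant Rab genes in every library (points), with the mean (line) and SD (bar) of each group. Rab27b and Rab19 are lowest in all RHC80267 libraries, RHC80267 replicate 2 of Rab37 lies near the other groups at 1.31 CPM, and Rab34 runs highest in RHC80267 cells and lowest in M-CSF cells.

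Early endosome and phagosome Rabs had 4 of 8 members lower and 1 higher, so 62.5% were called, against 49.9% of all genes. Rab5a had 112, 110.2 and 115 CPM in RHC80267 cells and 117, 122 and 125 CPM in RANKL cells, a small fall (log2 fold change −0.11 ± 0.039, adjusted p = 0.0233) whose call was lost without RANKL replicate 3 or RHC80267 replicate 1 or 2. Rab31, Rab22a and Rab5c were lower by log2 fold changes of −0.16, −0.15 and −0.092, and the call of Rab5c was lost without RANKL replicate 1 or 3 or RHC80267 replicate 1 or 2. Rab34 had 24, 20.1 and 22.8 CPM in RHC80267 cells and 16.9, 17.9 and 19.7 CPM in RANKL cells. It rose (log2 fold change 0.30 ± 0.091, adjusted p = 0.00975), but not past the threshold without RHC80267 replicate 1 (adjusted p = 0.059). That library also had the highest sum of 5 stromal cell markers, at 48.4 CPM, against 13.3 and 11.5 CPM in the other RHC80267 libraries and 4.58 to 10.9 CPM in RANKL cells. The part of stromal cells in the Rab34 result was not tested. Rab20 was not called (log2 fold change 0.14 ± 0.077).

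Rab11a had 113, 105 and 106 CPM in RHC80267 cells and 136, 133 and 134 CPM in RANKL cells. Every RHC80267 library was lower by a clear margin (log2 fold change −0.31 ± 0.041, adjusted p = 2.04e-06), while Rab11b was level at −0.015 ± 0.037. Rab4b also fell, at −0.18 ± 0.047, and the other 5 recycling Rabs were not called. Thus 28.6% of the recycling Rabs were called, against 49.9% of all genes. Rab4b shares 1280 exonic bases with the protein-coding entry Gm21983 on the same strand. In the endoplasmic reticulum and Golgi group, Rab2b, Rab33b, Rab6a and Rab43 fell with log2 fold changes of −0.20, −0.20, −0.17 and −0.16, and the other 6 were not called. The share called in that group was 40%, also against 49.9% of all genes. Rab6b, the gene with the lowest fold change with RANKL, had 13.5, 14 and 13.4 CPM in RHC80267 cells and 12.2, 13.7 and 11.9 CPM in RANKL cells and was not called.

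Set directly against each other at the same dose and time, RHC80267 and BMS309403 cells differed in 27 members, or 55.1%, against 55.5% of all genes tested. In RHC80267 cells 3 were higher and 24 lower, where 30.1% of all genes were higher and 25.5% lower. The 3 that were higher became 1 without BMS309403 replicate 2 or RHC80267 replicate 3. Libraries did not overlap for 30 members and for 61.7% of all genes. Of the macrophage markers, 6 were called lower in RHC80267 than in BMS309403 cells and 2 higher, and their part in these results was not tested. Rab38 had 40.4, 47.1 and 38.9 CPM in RHC80267 cells and 19.4, 18.9 and 18 CPM in BMS309403 cells (log2 fold change 1.17 ± 0.080, adjusted p = 6.15e-11). The inhibitors thus stood on opposite sides of the RANKL libraries for Rab38, and for Rab7b as well, which had 83.5, 89.2 and 87.8 CPM in RHC80267 cells and 283, 306 and 262 CPM in BMS309403 cells (log2 fold change −1.71 ± 0.053, adjusted p = 2.14e-16). Rab8b had 323, 348 and 324 CPM in RHC80267 cells and 520.4, 540.3 and 496 CPM in BMS309403 cells, again without overlap (log2 fold change −0.65 ± 0.045, adjusted p = 7.97e-11).

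Rab27b had 0.592, 0.381 and 0.543 CPM in RHC80267 cells and 2.61, 2.68 and 1.57 CPM in BMS309403 cells (log2 fold change −2.16 ± 0.33), and Rab19 had 1.56, 1.85 and 1.74 CPM in RHC80267 cells and 3.75, 4.24 and 4.25 CPM in BMS309403 cells (log2 fold change −1.25 ± 0.16). Both were lower in every RHC80267 library (adjusted p = 9.01e-06 and 1.13e-06). Rab11a had 113, 105 and 106 CPM in RHC80267 cells and 146, 144 and 135 CPM in BMS309403 cells (log2 fold change −0.39 ± 0.041, adjusted p = 5.29e-08). Rab2b, of the Golgi, had 14.3, 15.5 and 15.1 CPM in RHC80267 cells and 19.5, 19.4 and 18 CPM in BMS309403 cells (log2 fold change −0.34 ± 0.067, adjusted p = 0.000166). Rab7, Rab5a, Rab3d, Rab32, Rab27a and Rab44 were lower with log2 fold changes of −0.21, −0.17, −0.27, −0.26, −0.31 and −0.41, and Rab9 and Rab13 were not called, at −0.014 and 0.026. Besides Rab38, Rab42 and Rab34 were higher in RHC80267 cells (log2 fold changes 0.66 ± 0.23 and 0.26 ± 0.090). Rab42 had 1.51, 2.4 and 2.06 CPM in RHC80267 cells and 1.25, 1.23 and 1.29 CPM in BMS309403 cells and lost its call under 5 of 13 alternative settings, and Rab34 under 3. The calls of Rab27a and Rab44 were lost without RHC80267 replicate 3.

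Across the 4 comparisons, 6 members were never called: Rab13, Rab14, Rab18, Rab1b, Rab21 and Rab36. The share of all genes that was never called was not counted, so whether 6 is few or many cannot be said. Among the 6, Rab36 had at most 1.29 ± 0.564 CPM as a group mean ± SD, in RANKL cells. Relatives with similar sequence were mostly counted separately, since only Rab2a, Rab33b, Rab5a and Rab5b had any count that was not a whole number. In RSEM, a count that is not whole arises where a read is shared between genes. Exons of 17 members overlap another gene in the GENCODE annotation, 12 of them on the opposite strand.

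RNA of genes that switch and carry Rabs was counted in lists of known regulators. The list of GDIs and prenylation enzymes, which hold Rabs in or out of membranes, had 1 of 6 members higher in RANKL cells than in M-CSF cells, none called in BMS309403 cells against RANKL cells, and 3 higher and 2 lower in RHC80267 cells against RANKL cells. Thus 16.7%, 0% and 83.3% of this short list were called, against 61.2%, 7.23% and 49.9% of all genes. With RANKL 1 member was also called lower with RLE factors, a stricter filter, the replicate block, or without M-CSF replicate 2 or RANKL replicate 3. Rabggtb, the catalytic subunit of the enzyme that prenylates Rabs, had 45.1, 44.4 and 43.2 CPM in RHC80267 cells and 38.5, 34.8 and 37.9 CPM in RANKL cells (log2 fold change 0.26 ± 0.069, adjusted p = 0.00421). It was also higher in RANKL cells than in M-CSF cells, at 0.27 ± 0.073, with overlapping libraries. Gdi2, a GDI, had 980.4, 939 and 929 CPM in RHC80267 cells and 1092, 1074 and 1037 CPM in RANKL cells and fell (log2 fold change −0.17 ± 0.035). Chm, the escort protein that presents Rabs for prenylation, fell with a log2 fold change of −0.19 ± 0.056.

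Of 35 GEFs, 11 rose and 14 fell in RANKL cells against M-CSF cells, 1 rose and 2 fell in BMS309403 cells against RANKL cells, and 9 rose and 12 fell in RHC80267 cells against RANKL cells. The shares called, 71.4%, 8.57% and 60.0%, stand against 61.2%, 7.23% and 49.9% of all genes. St5, also called Dennd2b, a DENN-domain exchange factor, had 21.5, 19.4 and 18.8 CPM in RANKL cells and 2.13, 1.4 and 1.69 CPM in M-CSF cells (log2 fold change 3.51 ± 0.13, adjusted p = 5.55e-16). It fell to 14.4, 13.3 and 16.6 CPM in BMS309403 cells (−0.43 ± 0.083, adjusted p = 0.00266) and rose to 41.1, 40.2 and 38.9 CPM in RHC80267 cells (1.01 ± 0.071, adjusted p = 1.52e-10), both against RANKL cells. The levels of St5 thus stood in the same order over the groups as those of Rab38, highest in RHC80267 cells and lowest in M-CSF cells. The summed osteoclast markers stood in that order too, as did Rufy4, Mical3 and Tbc1d2b among others. The part of osteoclast precursors in the St5 result was not tested. Dennd2a, a relative of St5, had 25.9, 26 and 24.8 CPM in RANKL cells and 8.63, 8 and 6.12 CPM in M-CSF cells (1.75 ± 0.10). Rab3il1 and Dennd5a fell with RANKL, with log2 fold changes of −0.73 ± 0.048 and −0.50 ± 0.036.

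In RHC80267 cells the Rab5-family GEFs of the RIN group differed from each other. Rin3 had 107, 106 and 112 CPM in RHC80267 cells and 68.6, 67 and 67.9 CPM in RANKL cells (log2 fold change 0.67 ± 0.047), and Rin2 had 129, 146 and 142 CPM in RHC80267 cells and 199, 193 and 203 CPM in RANKL cells (log2 fold change −0.51 ± 0.048). Dennd4a, a GEF for Rab10, had 23.7, 23.3 and 23.3 CPM in RHC80267 cells and 47.8, 50.7 and 43.3 CPM in RANKL cells (−1.01 ± 0.066). All 3 had groups without overlap, with adjusted p of 1.48e-10, 1.29e-08 and 4.67e-11. In BMS309403 cells, Rab3il1 rose (0.19 ± 0.049) and Rabgef1, a GEF for Rab5, fell (−0.20 ± 0.059) against RANKL cells, with calls lost under 4 and 6 of 13 alternative settings. Without RANKL replicate 1 the log2 fold change of Rabgef1 was −0.13.

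Among 35 GAPs, 11 rose and 11 fell in RANKL cells against M-CSF cells, 1 rose and 2 fell in BMS309403 cells against RANKL cells, and 10 rose and 5 fell in RHC80267 cells against RANKL cells. The shares called were 62.9%, 8.57% and 42.9%, against 61.2%, 7.23% and 49.9% of all genes. The 5 lower in RHC80267 cells became 3 with DESeq2 and 3 without RHC80267 replicate 1. Tbc1d2b had 214, 213 and 206 CPM in RANKL cells and 139, 137 and 132 CPM in M-CSF cells (log2 fold change 0.63 ± 0.037), and it was higher again in RHC80267 cells, with 275, 293 and 286 CPM (0.43 ± 0.036 against RANKL cells). Usp6nl, a GAP for Rab5, had 52.6, 47.1 and 41.7 CPM in RANKL cells and 21.2, 20.6 and 21.1 CPM in M-CSF cells (1.17 ± 0.080). Sgsm1 had no counts in the 3 M-CSF libraries and 157 counts over the 3 RANKL libraries, at least 51.6-fold higher with M-CSF set to 3 counts over the group. Tbc1d9 fell with RANKL by 0.46 on the log2 scale. In RHC80267 cells Tbc1d16 and Tbc1d10b rose (0.59 ± 0.069 and 0.40 ± 0.041) and Tbc1d2, a GAP for Rab7, fell, with 16, 17.8 and 18 CPM against 23.9, 27.2 and 25 CPM in RANKL cells (−0.56 ± 0.080). In BMS309403 cells Tbc1d4 rose (0.20 ± 0.053) and Tbc1d2b and Sgsm2 fell (−0.13 ± 0.037 and −0.39 ± 0.10), and each of these calls was lost with 1 or more libraries left out.

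**Figure D5:**
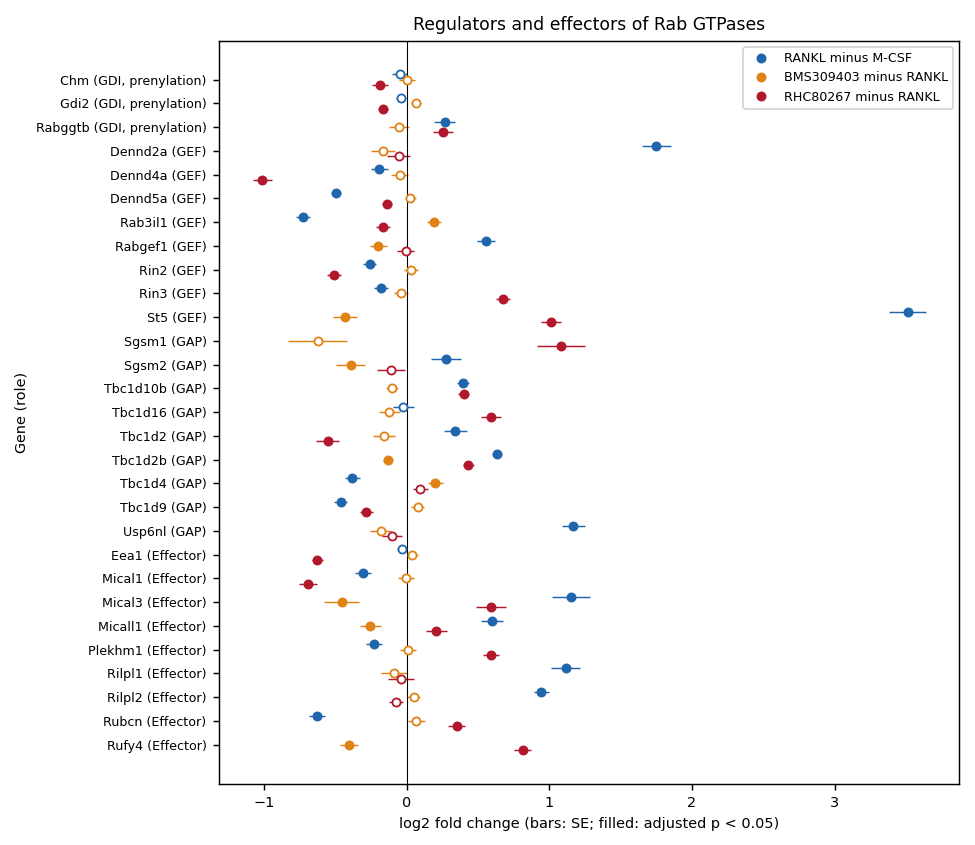
Log2 fold change with SE of regulators and effectors named by the rule, in 3 comparisons, with filled points for genes called at an adjusted p below 0.05. Points of Rufy4 and Sgsm1 with RANKL are left out because M-CSF cells had no counts of either. St5 stands at 3.51 with RANKL, −0.43 with BMS309403 and 1.01 with RHC80267.

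Of 48 effectors listed, 45 were in the table and 38 passed the low-count filter. In RANKL cells 12 rose and 10 fell against M-CSF cells, in BMS309403 cells none rose and 3 fell against RANKL cells, and in RHC80267 cells 10 rose and 12 fell against RANKL cells, with 57.9%, 7.89% and 57.9% called, against 61.2%, 7.23% and 49.9% of all genes. Rufy4, which binds Rab7 and tethers lysosomes, had no counts in M-CSF cells and 2769 counts in RANKL cells, at least 910-fold higher on the same floor of 3 counts. Its level was 37.7, 37.1 and 40.7 CPM in BMS309403 cells (log2 fold change −0.40 ± 0.063 against RANKL cells, adjusted p = 0.000625) and 87.5, 92.3 and 89 CPM in RHC80267 cells (0.81 ± 0.057, adjusted p = 5.41e-10), against 56.7, 49 and 47.2 CPM in RANKL cells. Rilpl2 and Rilpl1, relatives of the Rab7 effector RILP, rose with RANKL (0.94 ± 0.050 and 1.11 ± 0.10), and Rubcn, a Rab7-binding inhibitor of autophagosome maturation, fell (−0.63 ± 0.057). In BMS309403 cells Mical3 and Micall1 were lower (−0.46 ± 0.12 and −0.25 ± 0.074), with calls lost under 4 and 5 of 13 alternative settings, and Micall1 was at −0.16 without RANKL replicate 1.

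Eea1, the tether through which Rab5 joins early endosomes, had 119, 122 and 127 CPM in RHC80267 cells and 189, 191 and 189.6 CPM in RANKL cells. Every RHC80267 library was far below every RANKL library (log2 fold change −0.63 ± 0.039, adjusted p = 1.93e-11). In this comparison Rab5a and Rab5c were at −0.11 ± 0.039 and −0.092 ± 0.034, and Rab5b was at 0.068 ± 0.036 and not called. Plekhm1, a Rab7 effector known to be needed for the ruffled border, had 236, 256 and 246 CPM in RHC80267 cells and 166, 164 and 159 CPM in RANKL cells (log2 fold change 0.59 ± 0.057, adjusted p = 1.97e-08). So this effector rose while Rab7 fell slightly in the same libraries. In RANKL cells against M-CSF cells Plekhm1 fell (log2 fold change −0.23 ± 0.057, adjusted p = 0.00152), while Rab7 rose. Mical1, an actin-oxidising effector, had 28.7, 33.7 and 31.6 CPM in RHC80267 cells and 50.4, 48.8 and 52.4 CPM in RANKL cells (log2 fold change −0.69 ± 0.062). Between the inhibitors, Optn, a Rab8 effector, had 9.37, 10.5 and 9.61 CPM in RHC80267 cells and 20.7, 19 and 20.4 CPM in BMS309403 cells (log2 fold change −1.02 ± 0.088, adjusted p = 2.21e-09), and Rufy3 was at −0.55 ± 0.045.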

How the data were processed

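RNA from 12 libraries (4 groups of 3) was sequenced. Per the submitters' processing notes, the tools were Bowtie2, RSEM (1.3.1) and DESeq2 (1.4.5). The order of the steps, the strand setting and any read filter were not given in the sources used here. Per the file headers, the deposited table holds read counts. In each library 9.49% to 9.89% of them have decimals, so they were taken to be expected counts made by the authors. The deposited FPKM values (scaled by length and library size by the authors) were used only to compare levels between genes. Another 24 per-sample columns were not used. Gene positions are on GRCm38: 35 of 49 members had the same start and end in RefSeq GRCm38.p6, and no position is given for Rab11b, Rab3a and Rab44, whose entries span an unplaced sequence.

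Expected counts were rounded, filterByExpr by group left 12168 genes (4402 removed), and TMM factors scaled the libraries. The fit was edgeR 4.0.16 (R 4.3.3), quasi-likelihood, with a group term alone (8 residual degrees of freedom). Contrasts were 2-sided with Benjamini-Hochberg adjustment over all genes. SE is the fold change divided by the square root of its F value. No sets were tested. Counts over the members and over each regulator list stand beside the share called over all genes. Fold bounds and intervals of genes at 0 cover counting error only.

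The members, the gene lists and the naming rule were chosen with earlier results of these data known. Values in every library are given for 10 fixed genes (Rab7, Rab3d, Rab27a, Rab13, Rab38, Rab32, Rab44, Rab11a, Rab5a and Rab9), for up to 6 highest and 6 lowest called members per comparison whose libraries did not overlap, and for some other members chosen after their values were seen; up to 4 called regulators per list and comparison with the smallest p are named. A regulator that this rule names is not reported here. Also tried were RLE factors, a stricter filter or none, a fit of only the groups compared, DESeq2 1.42.0, limma-voom (limma 3.58.1), a replicate block and leaving out each library. Protein sequences were not analysed here.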

Additional observations from a re-analysis of the deposited data

How the results depend on the processing

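No fold change of a member turned its sign under an alternative while called. The call of 40 of 49 members stayed as reported under all alternatives for RANKL against M-CSF, of 45 for BMS309403 against RANKL, of 37 for RHC80267 against RANKL and of 38 for RHC80267 against BMS309403. No pairing of libraries by replicate number was seen (correlations of same-numbered libraries between −0.0617 and 0.0936). With 3 libraries per group, this cannot tell whether same-numbered libraries shared a mouse or culture. With the replicate number as a block, the counts were 6 higher and 26 lower for RANKL against M-CSF, 2 and 1 for BMS309403 against RANKL, 5 and 20 for RHC80267 against RANKL, and 3 and 24 for RHC80267 against BMS309403, equal to those without the block. DESeq2 called 3 members higher in RHC80267 than in RANKL cells, against 5 reported, with Rab3a and Rab9 not called. With 1 library left out, the counts for RANKL against M-CSF were 4 to 6 higher and 22 to 27 lower. Those for BMS309403 against RANKL were 1 to 3 higher and 0 to 1 lower, those for RHC80267 against RANKL 2 to 5 and 16 to 20, and those for RHC80267 against BMS309403 1 to 3 and 18 to 25. The count of 5 higher in RHC80267 than in RANKL cells became 2 without RHC80267 replicate 1 and 3 without RHC80267 replicate 2 or 3 or RANKL replicate 1 or 2. The 3 higher in RHC80267 than in BMS309403 cells became 1 without BMS309403 replicate 2 or RHC80267 replicate 3, and the 2 higher in BMS309403 cells became 1 when replicate 1 or 2 of either group was left out. No member was called lower in BMS309403 cells without RANKL replicate 1, BMS309403 replicate 2 or BMS309403 replicate 3 (edgeR), with 1, 1 and 2 members lower at an unadjusted p under 0.05. Over all genes the BMS309403 calls, 425 higher and 455 lower, were 152 and 111 without RANKL replicate 1 and 171 and 145 without BMS309403 replicate 2, and the cause was not tested. Members under about 3 CPM (Rab4a, Rab33a, Rab36, Rab37, Rab27b and Rab42) have the widest intervals, which depth limits.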

Other observations

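The 8 Rab genes under the read minimum had few reads in all 12 libraries together. Rab40b had 73 reads in all and Rab30 had 57, while Rab15, Rab17, Rab25, Rab26, Rab39b and Rab3b had 3 to 19. Rab25 and Rab17 are known mainly from epithelial cells and Rab3b and Rab26 from secretory cells.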
